A study of Mus musculus with 12 samples.

Results

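MicroRNA levels after a single dose of 10 Gy were compared with levels after a single dose of 2 Gy in LLC1, a line of mouse Lewis lung carcinoma cells kept in culture. The comparison used 6 of the 12 arrays of the series, 3 for each dose, chosen by the treatment in their labels. All irradiated cells were collected 4 h after treatment, so the 2 groups differ in the size of the dose and share the line, the medium and the hour. The other 6 arrays hold untreated LLC1 cells (3 arrays), whose levels are shown beside the results, and cells given 5 fractions of 2 Gy (3 arrays), which entered the scaling, the floor, the choice of tested miRNAs and the estimate of the spread but not the contrast. Each sample was hybridised to its own Agilent 1-colour miRNA array. The labels name no separate cultures, so the p-values below measure the spread between these samples, which may be technical.

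A microRNA is a short RNA that guides Argonaute to messenger RNAs, mainly through its seed, bases 2 to 8 from its 5′ end, and lowers their translation or stability. Ionizing radiation breaks DNA and activates the kinase ATM and the transcription factor p53, which switches on the miR-34 genes; miR-34 in turn limits cell cycle and survival genes such as Cdk6, Met and Bcl2. The let-7 family limits Ras, Myc and Hmga2 and is blocked during maturation by Lin28. The miR-17 cluster and its paralogs are driven by Myc and E2F and limit Bim and p21, so they are often abundant in tumour cells.

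The sequences of the miRNAs to which the results refer are given below in RNA letters, 5′ to 3′, as RefSeq lists them on assembly GRCm38.p6, with the seed in capitals. RefSeq held a mature sequence for 102 of the 118 tested miRNAs. The let-7 members are shown because they share the seed GAGGUAG and because every member detected on all 6 arrays had a positive difference. They differ from let-7a-5p at 1 to 4 of 22 positions. Counted from 1 at the 5′ end, with the base of let-7a-5p first, let-7c-5p carries A19G, let-7e-5p U9G and let-7f-5p G12A, while let-7b-5p carries A17G and A19G. Such close relatives can share hybridisation signal, so their probes are not independent.
let-7a-5p: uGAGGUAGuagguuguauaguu
let-7b-5p: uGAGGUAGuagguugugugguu
let-7c-5p: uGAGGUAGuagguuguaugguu
let-7d-5p: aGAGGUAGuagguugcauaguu
let-7e-5p: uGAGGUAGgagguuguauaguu
let-7f-5p: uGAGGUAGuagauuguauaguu
let-7g-5p: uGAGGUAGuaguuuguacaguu
let-7i-5p: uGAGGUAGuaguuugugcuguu

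The next sequences belong to the p53-driven miR-34b-5p, to miR-125a-5p, to members of the miR-17 clusters and to miR-494-3p, which had the most negative difference. The mature miR-34b-5p lies on the minus strand at chr9:51103610-51103632 in GRCm38.p6. The miR-19 pair differ at 1 of 23 positions, U11C from miR-19a-3p to miR-19b-3p, and share the seed GUGCAAA.
miR-34b-5p: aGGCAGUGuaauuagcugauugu
miR-125a-5p: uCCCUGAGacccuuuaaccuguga
miR-19a-3p: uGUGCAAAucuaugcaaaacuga
miR-19b-3p: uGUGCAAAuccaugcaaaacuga
miR-18a-5p: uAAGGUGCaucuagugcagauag
miR-20b-5p: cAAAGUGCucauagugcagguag
miR-494-3p: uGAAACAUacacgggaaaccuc

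Levels are log2 of the processed spot signal divided by the 75th percentile of that array, taken over 78 probes that every one of the 12 arrays detected, so a level of 0 is the brightness of that percentile. A probe was called detected where a share above 0.5 of its spots carried the scanner software's flag for signal well over the background, and levels were held at a floor of -4.06. The 75th percentile itself, in scanner units, was 316, 897 and 324 on the 2 Gy arrays (replicates 1 to 3) and 388, 307 and 867 on the 10 Gy arrays. Each dose therefore had 1 array, 2 Gy replicate 2 and 10 Gy replicate 3, that stood apart as brighter than the others. The number of mouse miRNAs detected followed the brightness, with 67, 110 and 76 at 2 Gy and 73, 62 and 115 at 10 Gy. The means of 84.3 ± 22.7 and 83.3 ± 28.0 (SD, n = 3) did not differ beyond that spread (two-sided exact permutation test, p = 1; 3 arrays against 3 cannot give less than 0.1). The 10 Gy replicate 3 lay on slide 2 and the other 5 arrays on slide 1, so only slide 1 gives a comparison within a slide. On the untreated arrays (replicates 1 to 3) the 75th percentile was 346, 110 and 703, with 75, 48 and 99 mouse miRNAs detected. The untreated levels below, and their part in the pooled spread, thus come from arrays of unlike brightness.

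No miRNA differed between the doses at an adjusted p under 0.05. A miRNA was tested where it was detected on all 3 arrays of at least 1 of the 4 groups, which held for 118 of 566 mouse entries, and 0 of the 118 (0%) passed in limma's moderated test with Benjamini-Hochberg adjustment; every adjusted p was 1. At an unadjusted p under 0.05 there were 2 (1.69%), let-7c-5p and miR-125a-5p, both with higher levels at 10 Gy. All 3 arrays of 10 Gy lay above all 3 of 2 Gy for 5 of the 118 miRNAs (4.24%), and all 3 lay below for 2 (1.69%). The first 5 were miR-34b-5p, let-7c-5p, miR-125a-5p, let-7a-5p and miR-199a-5p, and the other 2 were miR-26b-5p and the array entry miR-720_v18.0.

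The precision of these values can be read from the 62 miRNAs detected on all 6 arrays. Their differences, 10 Gy minus 2 Gy, were positive for 35 and negative for 27, with a median of 0.03, a median size of 0.07 and a median standard error of 0.13. Dividing each array by the 75th percentile over all its probes instead moved the differences upward together, by a median of 0.33, and gave 61 positive and 1 negative; signs below are those of the main scaling and are read against that shift. The differences ran from -0.56 for miR-494-3p to 0.35 for miR-34c-5p, and 59 of the 62 were under 0.25 in size. The 95% interval lay within 1 log2 unit of 0 for 59 of the 62 and within 0.58 for 44. The 3 with wider intervals were miR-494-3p, miR-34c-5p and miR-1224-5p. All 62 were measured by several probes, and for 49 the probes of a miRNA had differences of 1 sign. Among the 118 tested, 48 differences were positive, 47 were negative and 23 were 0 because all 6 arrays were at the floor.

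**Figure D1:**
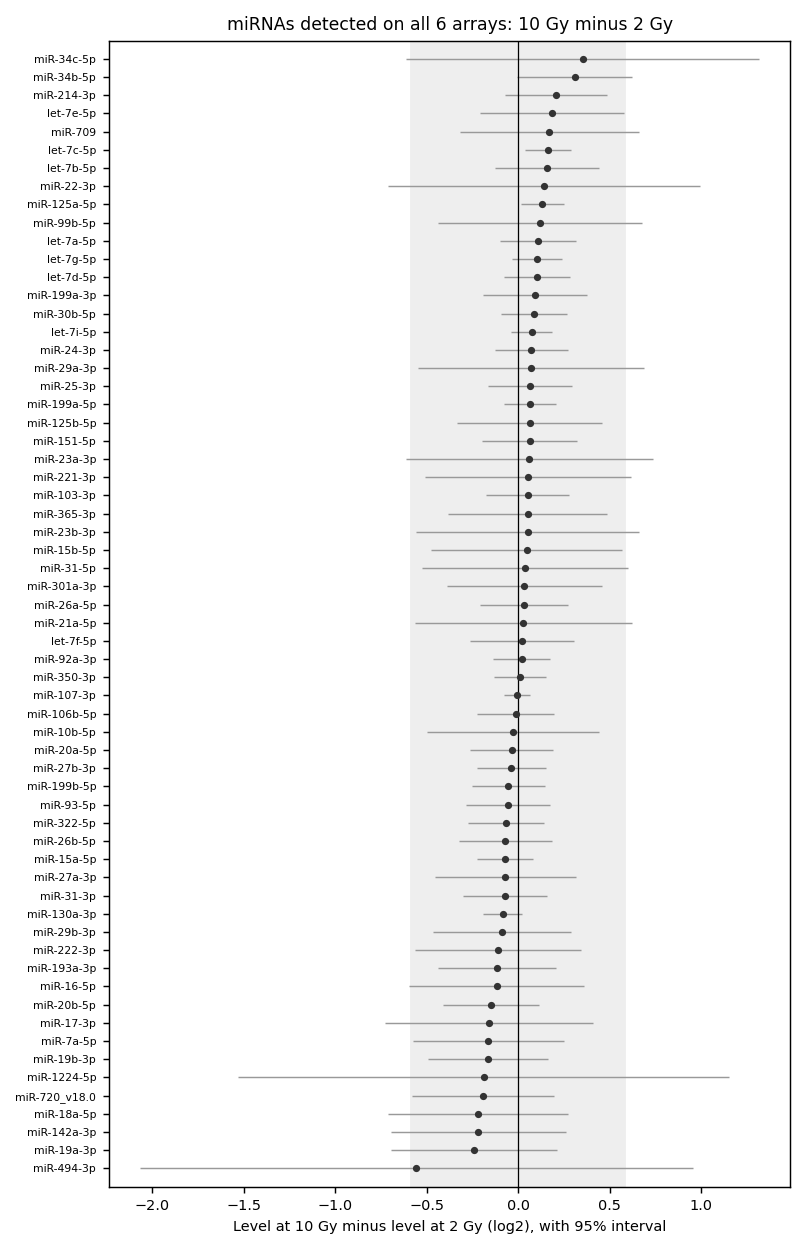
Difference in level between 10 Gy and 2 Gy (log2, horizontal axis) for the 62 miRNAs detected on all 6 arrays, ordered by size, with limma's 95% intervals as lines and the range within 0.58 of 0 shaded. The points run from -0.56 (miR-494-3p) to 0.35 (miR-34c-5p), and 59 of 62 intervals stay within 1 of 0.

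Of the p53-driven miR-34 entries, miR-34b-5p and miR-34c-5p were detected on all 6 arrays, and neither passed the test between the doses. Both are cut from a shared transcript. The level of miR-34b-5p was -1.0025, -1.56 and -1.02 on the 2 Gy arrays and -0.92, -0.79 and -0.95 on the 10 Gy arrays, against -1.74 ± 0.11 (SD, n = 3) in untreated cells. The doses did not overlap, and 2 Gy replicate 2, the brighter array, was the lowest of the 6. The difference was 0.31 (SE 0.14; 95% interval -0.01 to 0.62), a fold of 1.24 (0.995 to 1.54), with an adjusted p of 1 in limma. It was 0.34 within slide 1 and 0.13 without 2 Gy replicate 2. Between arrays of like brightness it was 0.16 over the 4 dimmer arrays and 0.61 between the 2 brighter ones. Both of its probes gave the difference, at 0.30 and 0.31.

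For miR-34c-5p the level was -0.77, -1.98 and -0.82 at 2 Gy and -0.66, -0.41 and -1.43 at 10 Gy, against -1.90 ± 0.61 (SD, n = 3) in untreated cells. The lowest array of each dose was its brighter one, and the doses overlapped. The difference of 0.35 (SE 0.42; 95% interval -0.62 to 1.32) was smaller than its standard error; it was 0.65 within slide 1 and -0.04 without 2 Gy replicate 2. With array brightness as a covariate it was 0.38, with a limma adjusted p of 0.72. The opposite strands, miR-34b-3p and miR-34c-3p, were at the floor on all 6 arrays. Of the 12 entries on the array from a list of p53-responsive miRNAs, 7 were tested, 0 passed, and 3 were detected on all 6 arrays. The third of these, miR-107-3p, which lies within a pantothenate kinase gene and limits cell cycle genes, had a difference of -0.01 (95% interval -0.08 to 0.07). Of the dimmer members, miR-129-2-3p was detected on 2 arrays of each dose, at -3.45, -4.06 and -3.25 after 2 Gy and -3.26, -3.18 and -3.34 after 10 Gy. Its lowest value, on 2 Gy replicate 2, was the floor, and its difference of 0.33 had a 95% interval of -0.09 to 0.74.

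The 8 let-7 members detected on all 6 arrays all had positive differences, from 0.02 for let-7f-5p to 0.18 for let-7e-5p, with a median of 0.10 beside 0.03 over all 62; over all probes the median was 0.43 beside the 0.33 shift. None passed the adjusted test, and 1 of the 9 tested had an unadjusted p under 0.05. That member, let-7c-5p, was at -0.29, -0.41 and -0.25 after 2 Gy and at -0.23, -0.15 and -0.08 after 10 Gy, against -0.31 ± 0.07 (SD, n = 3) in untreated cells. The doses did not overlap, but the highest 2 Gy array and the lowest 10 Gy array lay close together. The difference was 0.16 (SE 0.05; 95% interval 0.04 to 0.29), a fold of 1.12, with an adjusted p of 1 in limma; it was 0.12 within slide 1. It was 0.08 over the 4 dimmer arrays and 0.33 between the brighter ones. Its probes gave 0.11 and 0.21.

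The level of let-7a-5p was 0.36, 0.17 and 0.38 at 2 Gy and 0.41, 0.42 and 0.39 at 10 Gy, again without overlap and with 2 Gy replicate 2 the lowest. Its difference was 0.10 (95% interval -0.10 to 0.31), and 0.038 without 2 Gy replicate 2. The other members overlapped between doses: let-7b-5p had a difference of 0.16, let-7d-5p and let-7g-5p of 0.10 and let-7i-5p of 0.07. Without 2 Gy replicate 2 the difference was 0.072 for let-7b-5p, 0.068 for let-7e-5p and 0.060 for let-7d-5p; without 10 Gy replicate 2 it was 0.096 for let-7b-5p and 0.092 for let-7e-5p. Without 10 Gy replicate 3 it was 0.056 for let-7g-5p and 0.033 for let-7i-5p. The ninth family member, miR-98-5p, was dim, at -3.25, -3.93 and -3.25 after 2 Gy and -3.40, -3.15 and -4.01 after 10 Gy. Its difference was -0.04 with a 95% interval of -0.99 to 0.90, so its sign is not resolved.

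Taken per array, the median level of the 8 let-7 members was -0.47, -0.55 and -0.46 at 2 Gy and -0.45, -0.36 and -0.37 at 10 Gy. The doses did not overlap in that median, and the untreated arrays were at -0.57, -0.45 and -0.62. All 8 members had positive differences among the 4 dimmer arrays (median 0.06) and also between the 2 brighter arrays (median 0.23). The second comparison is 1 array against 1, on different slides. Over the 62 miRNAs, 25 were positive in both of these comparisons, 21 were negative in both and 46 in all had 1 sign. Without 2 Gy replicate 2 the let-7 members were 7 positive and 1 negative (median 0.070). Without 10 Gy replicate 2 they were likewise 7 and 1 (median 0.098). The 2 probes of let-7f-5p differed in sign, at 0.10 and -0.06. The let-7 probes are near-identical in target, so 8 members are not 8 independent measurements.

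**Figure D2:**
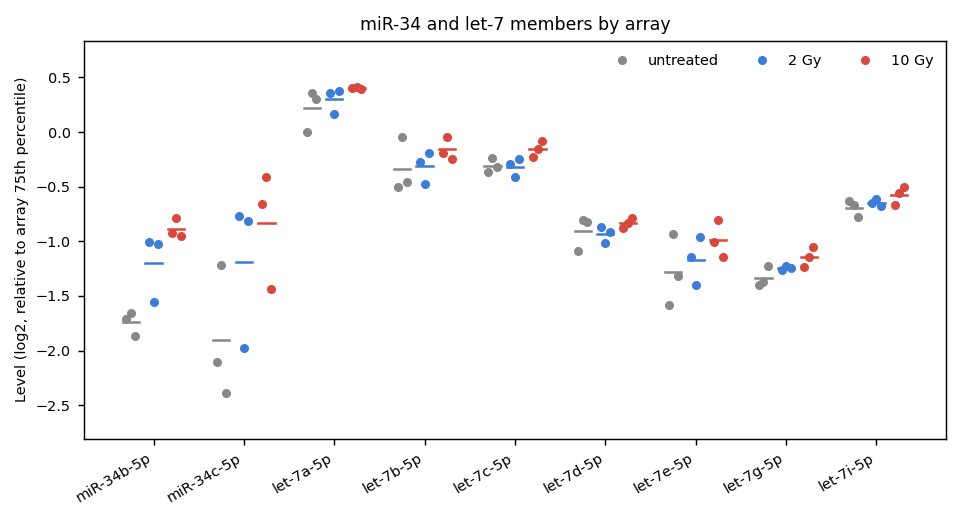
Level of each miR-34 and let-7 member shown (log2 relative to the array's 75th percentile, vertical axis) on every untreated, 2 Gy and 10 Gy array, with points for arrays and bars for the mean of 3. For miR-34b-5p the 10 Gy points lie between -0.95 and -0.79 and the 2 Gy points between -1.56 and -1.0025, while for let-7a-5p the 10 Gy points lie between 0.39 and 0.42.

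In the miR-17 cluster and its paralogs, 10 of 12 tested members had negative differences, and none passed the test. Of the 10 members detected on all 6 arrays, 8 were negative, with a median of -0.10 and a range from -0.24 to 0.06, while scaling over all probes made all 10 positive, with a median of 0.22 that is below the 0.33 shift of the 62. The median was -0.0016 without 2 Gy replicate 2 and -0.013 without 10 Gy replicate 2, each with 5 members negative and 5 positive, so the negative balance rests on those arrays. The largest was that of miR-19a-3p, which shares its seed with miR-19b-3p. It was at -1.54, -1.26 and -2.06 after 2 Gy and at -1.88, -2.05 and -1.65 after 10 Gy, against -1.46 ± 0.05 (SD, n = 3) in untreated cells. The values of the doses overlapped, and the brighter array of each dose was its highest. The difference was -0.24 (SE 0.20; 95% interval -0.70 to 0.21); it was -0.35 within slide 1, -0.17 over the dimmer arrays and -0.39 between the brighter ones. Without 2 Gy replicate 2 it was -0.064, and without 10 Gy replicate 2 it was -0.15.

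Its near-copy miR-19b-3p was at 0.10, 0.34 and -0.29 after 2 Gy and at -0.12, -0.25 and 0.02 after 10 Gy, a difference of -0.17 (95% interval -0.49 to 0.16). For miR-18a-5p, which limits ATM, the values were -2.14, -1.68 and -2.48 at 2 Gy and -2.34, -2.58 and -2.04 at 10 Gy, a difference of -0.22 (95% interval -0.71 to 0.27). Both overlapped between doses, and for each the brighter array was the highest of its dose. Without 2 Gy replicate 2 the differences were -0.021 for miR-19b-3p and -0.0094 for miR-18a-5p. The X-linked paralog miR-20b-5p had a difference of -0.15 (95% interval -0.41 to 0.11) and the passenger strand miR-17-3p one of -0.16 (95% interval -0.73 to 0.41). The members named next were chosen after their values were seen. The exceptions to the negative sign were miR-92a-3p, at 0.02 (95% interval -0.14 to 0.18), and miR-25-3p, at 0.06 (95% interval -0.17 to 0.29). These 2 share the seed AUUGCAC. The probes of each differed in sign, so neither sign is resolved. Of the tested members with a RefSeq sequence, 4 share the seed AAAGUGC. All 4 were negative in the main scaling, from -0.15 to -0.02, with a median of -0.05. The probes of miR-93-5p differed in sign, as did those of miR-106b-5p. The array entries miR-17_v17.0 and miR-106a_v17.0, whose names matched no RefSeq sequence, had differences of -0.10 and -0.14. Their seeds were therefore not compared.

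The median level of the 10 members was -1.52, -1.33 and -1.87 on the 2 Gy arrays and -1.73, -1.87 and -1.52 on the 10 Gy arrays. These medians overlapped fully, and the brighter array was the highest in each dose. Among arrays of like brightness, 8 of 10 members were negative over the dimmer arrays and 7 of 10 between the brighter ones, and 6 were negative in both.

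**Figure D3:**
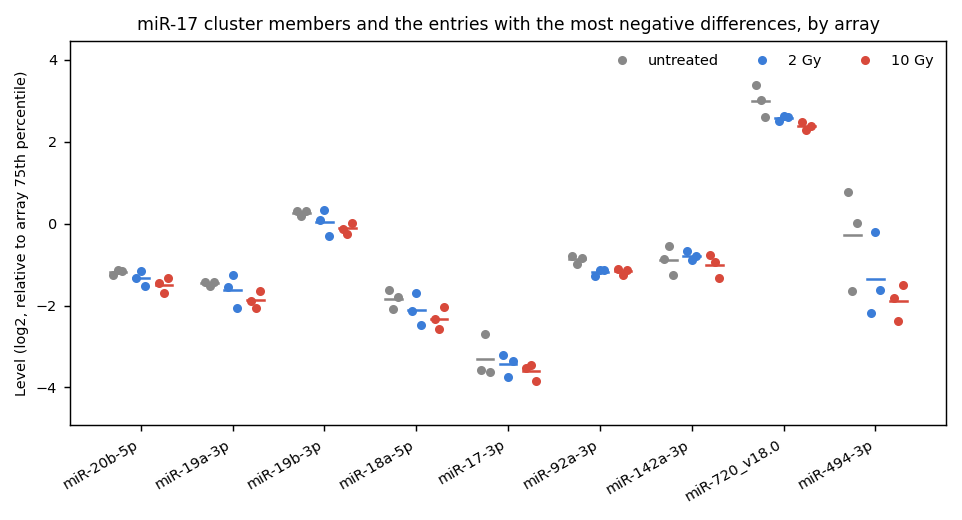
Level (log2 relative to the array's 75th percentile, vertical axis) of miR-17 cluster members and of miR-142a-3p, miR-720_v18.0 and miR-494-3p on every untreated, 2 Gy and 10 Gy array. Those named have among the most negative differences of the 62 miRNAs. Points are arrays and bars are means of 3. In the main scaling the doses overlap for every miRNA shown except miR-720_v18.0, and miR-494-3p spans -2.18 to -0.21 within 2 Gy alone.

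Among other miRNAs whose doses did not overlap, miR-125a-5p, a sister of lin-4 that acts on Erbb2 and Erbb3, was at -2.45, -2.31 and -2.33 after 2 Gy and at -2.30, -2.28 and -2.13 after 10 Gy. Its difference was 0.13 (SE 0.05; 95% interval 0.01 to 0.25), a fold of 1.09, with an adjusted p of 1 in limma and a value of 0.08 within slide 1. The untreated level was -2.26 ± 0.05 (SD, n = 3), between the means of the doses, -2.37 ± 0.08 at 2 Gy and -2.24 ± 0.09 at 10 Gy (SD, n = 3). Each of its probes was positive, at 0.12 and 0.14. The 2 doses of miR-199a-5p, from a locus active in mesenchymal cells, were -1.92, -1.95 and -1.89 against -1.86, -1.87 and -1.83, a difference of 0.06 (95% interval -0.08 to 0.20). Its 2 probes differed in sign, at 0.18 and -0.06, so the separation is that of their average.

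In the other direction, miR-26b-5p, which lies in a Ctdsp gene and whose family limits Ezh2, was at -2.31, -2.31 and -2.30 after 2 Gy and at -2.35, -2.38 and -2.40 after 10 Gy. Its arrays were tight within each dose, at 0.01 and 0.03 (SD, n = 3), and the difference was -0.07 (95% interval -0.33 to 0.18). The interval comes from the spread pooled over all 4 groups, and the untreated arrays spread by 0.28 (SD, n = 3) for this miRNA. A small separation of this size is sensitive to scaling: its sign was positive under quantile scaling (0.01), with scaling over all probes (0.25) and on the authors' deposited log2 values (0.04).

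The remaining lists held no called member. Of miRNAs that act on the DNA damage response, 16 were tested and 9 detected on all 6 arrays, 6 with positive and 3 with negative differences and a median of 0.03, the same as over the 62; leaving out single arrays moved it from -0.073 to 0.077. These included miR-24-3p, which limits H2AX, at 0.07 (95% interval -0.13 to 0.27), and miR-222-3p, which limits p27, at -0.11 (95% interval -0.57 to 0.34). The inflammation and interferon list had 5 of 5 positive, with a median of 0.06 and differences from 0.03 to 0.13. Within slide 1 it had 3 positive and 2 negative, as it had without any of the 3 arrays of 2 Gy or 10 Gy replicate 1, and quantile scaling gave 3 and 2 too. Its best-known member, miR-155-5p, was dim, at -3.81, -3.96 and -3.69 after 2 Gy and -3.78, -3.72 and -3.75 after 10 Gy, a difference of 0.07 (95% interval -0.17 to 0.30).

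In the miR-15/16 family, which holds back cyclins and Bcl2 and shares the seed AGCAGCA, 3 of the 4 members detected on all 6 arrays were negative, with a median of -0.07, and all 4 were positive with scaling over all probes (median 0.25). For miR-16-5p the level was -1.40, -1.03 and -1.63 after 2 Gy and -1.58, -1.76 and -1.07 after 10 Gy, and the brighter array was the highest of each dose. Its difference was -0.12 (95% interval -0.60 to 0.36). The collagen-limiting miR-29 family had miR-29a-3p at 0.07 (95% interval -0.55 to 0.68) and miR-29b-3p at -0.09 (95% interval -0.47 to 0.28). The miR-23/27/24 clusters had 3 positive and 2 negative members with a median of 0.05, and the list of miRNAs abundant in carcinoma lines had 5 positive and 4 negative with a median of 0.03. Neither sign held when single arrays were left out: the medians ran from -0.12 to 0.12 and from -0.035 to 0.054. Of the 5 miR-30 members tested, miR-30b-5p was the member detected on all 6 arrays, at 0.08 (95% interval -0.10 to 0.26).

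The most negative difference, that of miR-494-3p, came with the widest interval of the 62. Its level was -2.18, -0.21 and -1.63 after 2 Gy and -1.81, -2.39 and -1.49 after 10 Gy, and 0.77, -1.65 and 0.02 in untreated cells. The 2 Gy replicate 2 was the highest of the 6 arrays, and the doses overlapped. The difference of -0.56 (SE 0.66; 95% interval -2.07 to 0.95) was 0.0086 without 2 Gy replicate 2, -0.19 over the dimmer arrays and -1.28 between the brighter ones. A list kept for entries from rRNA, tRNA or repeats or rich in G and C includes miR-494-3p. Its own sequence holds 45.5% G and C, and RefSeq gives it 1 locus. The median was 43.5% over the miRNAs detected on all 6 arrays with a RefSeq sequence. Whether miR-494-3p belongs on that list was not tested. Of the 7 tested from that list, 1 was positive and 5 negative; of the 4 detected on all 6 arrays, 1 was positive and 3 negative with a median of -0.19, which became 3 and 1 with a median of 0.09 when scaled over all probes. Without 2 Gy replicate 2 they were likewise 3 and 1, with a median of 0.06. The summed linear level of that list ran from 8.37 to 9.94 on the 2 Gy arrays and from 7.20 to 8.42 on the 10 Gy arrays, overlapping slightly. Its brightest member, miR-720_v18.0, which has since been reclassified as a tRNA fragment, was at 2.50, 2.62 and 2.61 after 2 Gy and at 2.48, 2.29 and 2.38 after 10 Gy, without overlap. Its difference was -0.19 (95% interval -0.58 to 0.19). The part of these entries in other differences was not tested.

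Markers of other cell types gave the following levels. Epithelial markers, the miR-200 and miR-183 clusters, are usual in epithelial tumours, but 6 of 8 were detected on none of the 6 arrays and miR-182-5p was at the floor on all. Their summed linear level was 0.479 to 0.483 at 2 Gy and 0.479 to 0.485 at 10 Gy, close to the floor for 8 entries. Of the fibroblast and endothelial list, 3 of the 7 entries on the array were detected on all 6 arrays and 2 on none. The 3 were miR-199a-3p, miR-199a-5p and miR-214-3p, and no miR-126 entry of the list was tested. The summed level of the list was 2.00 to 2.42 at 2 Gy and 2.32 to 2.49 at 10 Gy. Of the 3, miR-214-3p was at -2.08, -2.28 and -1.87 after 2 Gy and at -1.80, -1.78 and -2.04 after 10 Gy. Its difference of 0.21 (95% interval -0.07 to 0.49) was 0.10 without 2 Gy replicate 2. The other tested member, miR-143-3p, was detected on 2 arrays of 2 Gy and 1 of 10 Gy. It had a difference of -0.05 (95% interval -0.22 to 0.12). All samples are of the cultured line LLC1, so these levels do not measure shares of fibroblast, endothelial or blood cells. In bulk RNA, fewer cells carrying a miRNA and less of it per cell cannot be told apart. The blood cell marker miR-142a-3p was at -0.66, -0.89 and -0.80 after 2 Gy and at -0.76, -0.93 and -1.32 after 10 Gy, a difference of -0.22 (95% interval -0.70 to 0.26) that was -0.06 within slide 1. Of the 6 blood entries on the array, 4 were detected on none of the 6 arrays and only miR-142a-3p on all 6. The summed blood list was 0.92 to 1.01 at 2 Gy and 0.74 to 0.96 at 10 Gy, and rests mainly on that miRNA. Muscle markers and nerve and liver markers were detected on 0 of the 6 arrays for 6 of 6 entries each.

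Pairs of arrays within a dose differed by about as much as pairs across doses. The median size of the difference between 2 arrays over the 62 miRNAs was 0.13 to 0.26 within 2 Gy (median of 3 pairs 0.25), 0.09 to 0.25 within 10 Gy (median 0.17) and 0.05 to 0.29 between doses (median of 9 pairs 0.16). The closest and the most distant pair both crossed the doses: 2 Gy replicate 3 and 10 Gy replicate 1 differed by 0.05, and 2 Gy replicate 2 and 10 Gy replicate 2 by 0.29. The 2 brighter arrays, which also cross the doses, differed by 0.13 and each stood 0.17 or more from every other array.

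**Figure D4:**
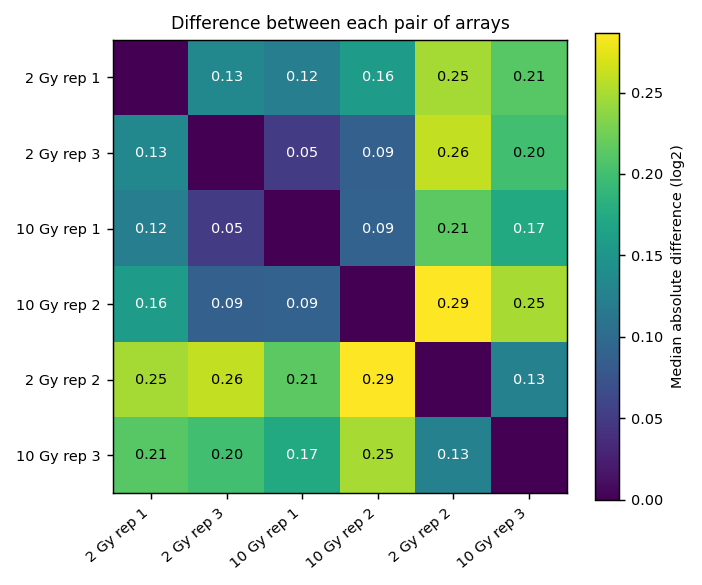
Median absolute difference in level (log2, colour and printed value) over the 62 miRNAs between each pair of the 2 Gy and 10 Gy arrays, with the brighter array of each dose placed last. The smallest value is 0.05, between 2 Gy replicate 3 and 10 Gy replicate 1, and the brighter arrays are closest to each other (0.13).

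The miRNAs that set the brighter arrays apart were largely shared. The 2 Gy replicate 2 minus the mean of its partners and the 10 Gy replicate 3 minus the mean of its partners had 1 sign for 53 of 62 miRNAs, 25 positive and 28 negative. Pearson's r across these 62 miRNAs was 0.87, a description across miRNAs measured on shared arrays. The median size of this contrast was 0.25 at 2 Gy and 0.22 at 10 Gy, beside 0.07 for the dose difference, which was smaller than both contrasts for 39 of 62. It exceeded 0.5 upward in both doses for 3 miRNAs, miR-494-3p (1.70 and 0.61), miR-1224-5p (0.90 and 0.52) and miR-31-5p (0.63 and 0.52). It exceeded 0.5 downward in both for 5, among them miR-34c-5p (-1.18 and -0.89) and miR-23a-3p (-0.62 and -0.77); miR-31-5p and the unnamed 3 lie outside the rule for named miRNAs and were counted after their values were seen.

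**Figure D5:**
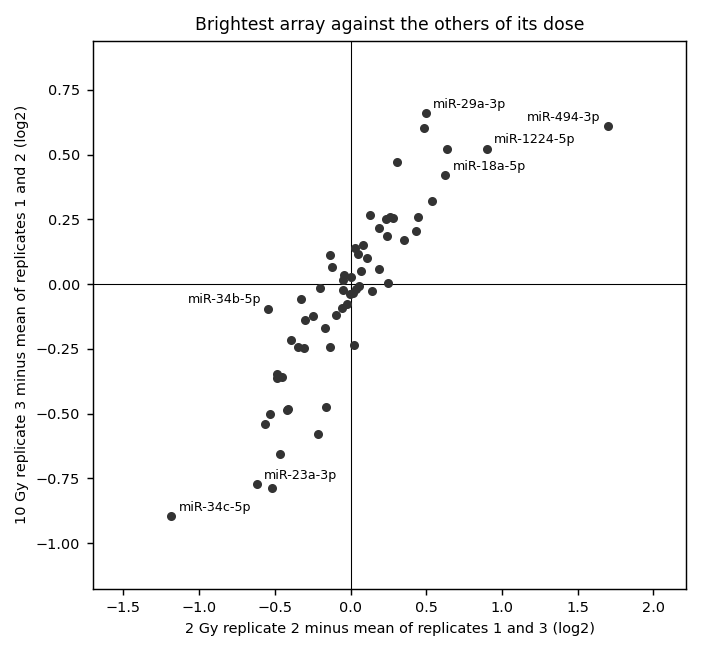
Each point is 1 of the 62 miRNAs; the horizontal axis is its level on 2 Gy replicate 2 minus the mean of replicates 1 and 3, and the vertical axis its level on 10 Gy replicate 3 minus the mean of replicates 1 and 2 (log2). The signs match for 53 of 62, with miR-494-3p highest and miR-34c-5p lowest at 2 Gy.

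Presence and absence gave no contrast between the doses. At 2 Gy 67 miRNAs were detected on all 3 arrays and at 10 Gy 62, and those 62 were detected on all 3 arrays of 2 Gy too. The 5 others were detected on 1 or 2 arrays of 10 Gy; 0 miRNAs were detected on all 3 arrays of a dose and on none of the other dose. Over the 6 arrays, 122 mouse entries were detected at least once. The 10 herpesvirus entries on the array were detected on 0 arrays. For the 55 miRNAs detected on all 6 arrays with a RefSeq sequence, the difference had a Pearson's r of 0.04 with the G and C content of the mature sequence, and for all 62 an r of 0.08 with the mean level; both are descriptions across miRNAs that share arrays.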

How the data were processed

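The authors deposited a scanner file for each array, with spot intensity on a linear scale; the submitters' processing notes name Agilent Feature Extraction 10.7.3.1. They also deposited a value table in log2, which equalled log2 of the processed signal (signals under 1 set to 1) plus a constant for each array, within 1e-04, with all column means at 1.98 and column medians from -0.19 to 1.14. Deposited spot flags were used as the file headers define them. Control and outlier flags removed spots, the well above background flag set detection, and the saturated flag was only counted. On each array 11340 spots of 1672 mouse probes were read. Control and outlier spots (2.35 to 4.98% of the 6 arrays' mouse spots) were left out, 0 spots were saturated, and the spots of a probe were averaged. Signals were divided by the array's 75th percentile over 78 probes detected on all 12 arrays, set to a floor of 0.0598 (the median over arrays of the lowest detected signal), and log2 was taken. Probes detected on at least 3 arrays were averaged into the level of their miRNA. limma 3.58.1 in R 4.3.3 (with the data.table package, version 1.17.8) was fitted on all 12 arrays with lmFit and eBayes (8 residual degrees of freedom, prior 0.45), and the contrast was 10 Gy minus 2 Gy, two-sided, adjusted by Benjamini-Hochberg over 118 miRNAs. The fit was also run on simulated data with known differences and noise drawn independently for each miRNA and array. Such noise lacks the pattern that the brighter arrays share, so that run does not bear on it. The number of arrays limits the precision. Python 3.11.15, pandas 2.3.3 and matplotlib 3.10.9 drew the figures.

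The miRNAs and lists were chosen with earlier results of these data known; array names of older releases for miR-17, miR-106a and miR-101b were added to the lists once the files were read. Names were drawn from called miRNAs, the 8 highest and 8 lowest differences above the floor on all 6 arrays, the 6 smallest unadjusted p in each direction, up to 4 tested members per list, all tested miR-34 entries and miRNAs whose doses do not overlap. Not every miRNA under these rules is described above. Among those left out are miR-689_v15.0, with a difference of -0.32, and miR-709 and miR-140-3p, with 0.17 and 0.21. Others are named as examples chosen after their values were seen (let-7f-5p, miR-98-5p, miR-92a-3p, miR-25-3p, miR-107-3p, miR-31-5p, miR-17-3p). Names are those of the array design. The labels do not say whether replicate numbers pair the samples, and the main fit did not pair them. Alternatives covered scaling, floor, filters, probes, slide, brightness, replicate block, the authors' values and leaving out each array.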

Additional observations from a re-analysis of the deposited data

How the results depend on the processing

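With limma, 0 miRNAs were called under the main setting and every alternative, with 0 to 8 at an unadjusted p under 0.05 and a smallest adjusted p of 0.562 (without 2 Gy replicate 3). The labels do not say whether a replicate number links samples across doses. Same-numbered arrays correlated at 0.22, -0.92 and -0.78 in their deviations. The brighter arrays, 2 Gy replicate 2 and 10 Gy replicate 3, correlated at 0.87, so brightness enters these values and they cannot decide it. The fit with the replicate block gave 0 calls and 3 at an unadjusted p under 0.05. Scaling to the 75th percentile over all probes moved the 62 miRNAs by a median of 0.33 (61 positive, 1 negative, against 35 and 27); quantile scaling moved them by 0.00 (36 and 26), the median of detected probes by -0.02 (32 and 30) and no scaling by 0.06 (39 and 23). The normexp setting on the mean signal was not run, as no mean signal column was used here; normexp on the median signal stood in and was chosen after seeing the data, as were the total signal per miRNA and leaving out the brightest array of each dose.

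Signs turned as follows, among values that never passed the test; apart from the shift above the cause was not tested. Over all probes the differences became 0.12 (miR-27b-3p), 0.26 (miR-322-5p), 0.25 (miR-26b-5p, miR-15a-5p, miR-27a-3p, miR-31-3p), 0.24 (miR-130a-3p), 0.23 (miR-29b-3p), 0.0021 (miR-574-5p), 0.18 (miR-222-3p and miR-20b-5p), 0.21 (miR-16-5p), 0.14 (miR-29c-3p), 0.16 (miR-19b-3p), 0.050 (miR-1224-5p), 0.13 (miR-720_v18.0), 0.11 (miR-18a-5p, miR-142a-3p) and 0.083 (miR-19a-3p). Quantile scaling gave -0.0033 (miR-125b-5p), 0.0054 (miR-27b-3p), 0.010 (miR-26b-5p) and 0.076 (miR-222-3p). The authors' values gave 0.041 (miR-322-5p), 0.038 (miR-26b-5p), 0.036 (miR-15a-5p), 0.031 (miR-27a-3p and miR-29b-3p) and 0.018 (miR-130a-3p). Slide as a block and within slide 1 gave -0.15 (miR-29a-3p), -0.034 (miR-103-3p) and 0.12 (miR-27a-3p). Normexp gave -0.014 (miR-155-5p), and leaving out the brightest array of each dose -0.0024 (miR-155-5p), 0.048 (miR-27a-3p) and 0.0076 (miR-31-3p). Detected miRNAs per array, 10 Gy minus 2 Gy, was 0.333 when all spots had to be above background, and log2 brightness was -0.39 within slide 1.

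Leaving out each array in turn gave -16.8 to 11.8 detected miRNAs and -0.39 to 0.55 for log2 brightness. The sign turned without 2 Gy replicate 2 for miR-34c-5p (-0.044 to 0.65), miR-199a-3p (-0.0099 to 0.17), miR-155-5p (-0.0025 to 0.13), miR-125b-5p (-0.10 to 0.22), miR-23a-3p (-0.15 to 0.32), miR-31-3p (-0.13 to 0.0095), miR-29b-3p (-0.18 to 0.055), miR-16-5p (-0.32 to 0.041), miR-29c-3p (-0.28 to 0.077), miR-1224-5p (-0.37 to 0.11), miR-690 (-0.60 to 0.33) and miR-494-3p (-0.98 to 0.0086). It turned without another array for miR-22-3p (-0.066 to 0.26), miR-29a-3p (-0.15 to 0.23), miR-103-3p (-0.034 to 0.13), miR-222-3p (-0.29 to 0.054) and miR-27a-3p (-0.18 to 0.12). Among list medians, the sign also turned for the entries of rRNA, tRNA or high G and C content (-0.30 to 0.060), the miR-23/27/24 clusters (-0.12 to 0.12), the DNA damage list (-0.073 to 0.077) and the carcinoma list (-0.035 to 0.054), while the miR-17 clusters ran from -0.13 to -0.0016 and let-7 from 0.070 to 0.14.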
